A study of Homo sapiens with 6 samples.

Results

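A set of 10 genes of secreted matrix proteins and of transforming growth factor beta (TGF-beta) signaling was followed in heat-treated residual HCC cells with and without added periostin. The genes are POSTN itself, its paralog TGFBI, the matricellular genes TNC, SPARC, THBS1 and SPP1, the fibronectin gene FN1, the ligand genes TGFB1 and TGFB2, and the receptor gene TGFBR2. All probe sets whose annotation lists exactly 1 of these 10 symbols were taken, whatever their signal, which gave 10 of the 19775 genes that have a probe set with 1 symbol, and 35 of the 54613 probe sets analysed. A probe set is a group of short probes on the array that reads 1 target sequence.

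The cells of both groups were MHCC97H, an established line of human hepatocellular carcinoma (HCC), heated at 47 °C as a model of the sublethal temperature around an ablated tumor. The 3 control samples received no POSTN (0 ng/mL) and the 3 POSTN samples received 100 ng/mL of recombinant POSTN for 24 h, and neither group held unheated cells. Total RNA of each sample was read on 1 Affymetrix Human Genome U133 Plus 2.0 array, and the deposited values are log2 signals. The sources used here do not say whether the 3 samples of a group were separate cultures, and a p-value here reflects how these particular samples vary, which may be technical. The added protein leaves no trace on an RNA array, so the arrays hold no check of the treatment itself.

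POSTN and TGFBI share a family of repeated domains, the fasciclin (FAS1) domains, and are secreted into the matrix, where they bind integrins and collagen. Matricellular proteins such as TNC, SPARC, THBS1 and SPP1 are secreted proteins that act more on cell signaling than on the mechanical structure of the matrix. TGF-beta ligands signal through a receptor pair to SMAD proteins, which enter the nucleus, and TGFBI, POSTN, TNC, THBS1 and FN1 are all known as genes that TGF-beta can raise. In the liver, activated hepatic stellate cells are known as a main source of POSTN and of fibrillar collagen.

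A level above which a signal was read as expression was set at 5.98 on the log2 scale, the 95th percentile of the mean signals of 107 probe sets for olfactory receptor genes, and 25320 of all probe sets had a mean above it. The median log2 signals of the 6 arrays lay between 5.80 and 5.95, and between 47.7% and 49.7% of probe sets lay above the background level on each. The 2 arrays numbered 1 (control 1 and POSTN 1) stood apart from the other 4, with 3069 probe sets called at an adjusted p under 0.05 in limma, which is 5.62% of all. For this reason each result is given with its 6 values, and the difference between POSTN and control is also given with the replicate number as a block. Among the probe sets of the 10 genes, 23 were above the background level and 12 were within the background range. Of the 10 genes, 9 had at least 1 probe set above it, and POSTN had none.

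The POSTN transcript was not detected above background in either group. Its 4 probe sets had mean log2 signals between 2.06 and 4.06. On the brightest, 210809_s_at, the control arrays had log2 signals of 4.65, 1.39 and 4.75 and the POSTN arrays 4.23, 5.60 and 3.74. The groups overlapped, and the difference, POSTN minus control, was 0.93 (95% confidence interval -1.43 to 3.28). On 1555777_at, the dimmest, the control signals were 1.32, 1.73 and 1.02 and the POSTN signals 1.83, 3.98 and 2.45. These values did not overlap, but all of them lay under the background level, and the difference of 1.40 had an interval from -0.57 to 3.36. The other 2 probe sets had log2 differences of -0.78 and -0.43.

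TGFBI, the paralog of POSTN, was strongly expressed and did not differ between the groups beyond their spread. The TGFBI protein, also called beta ig-h3, links collagen to integrins. Its only probe set, 201506_at, had log2 signals of 12.02, 12.55 and 12.73 on control arrays 1, 2 and 3, and of 11.98, 12.62 and 12.65 on POSTN arrays 1, 2 and 3. The array numbered 1 was the lowest in each group, and arrays 2 and 3 were close together. The difference between POSTN and control was -0.015 (standard error 0.21, 95% interval -0.47 to 0.44), or -0.14 to 0.11 with the replicate block.

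**Figure D1:**
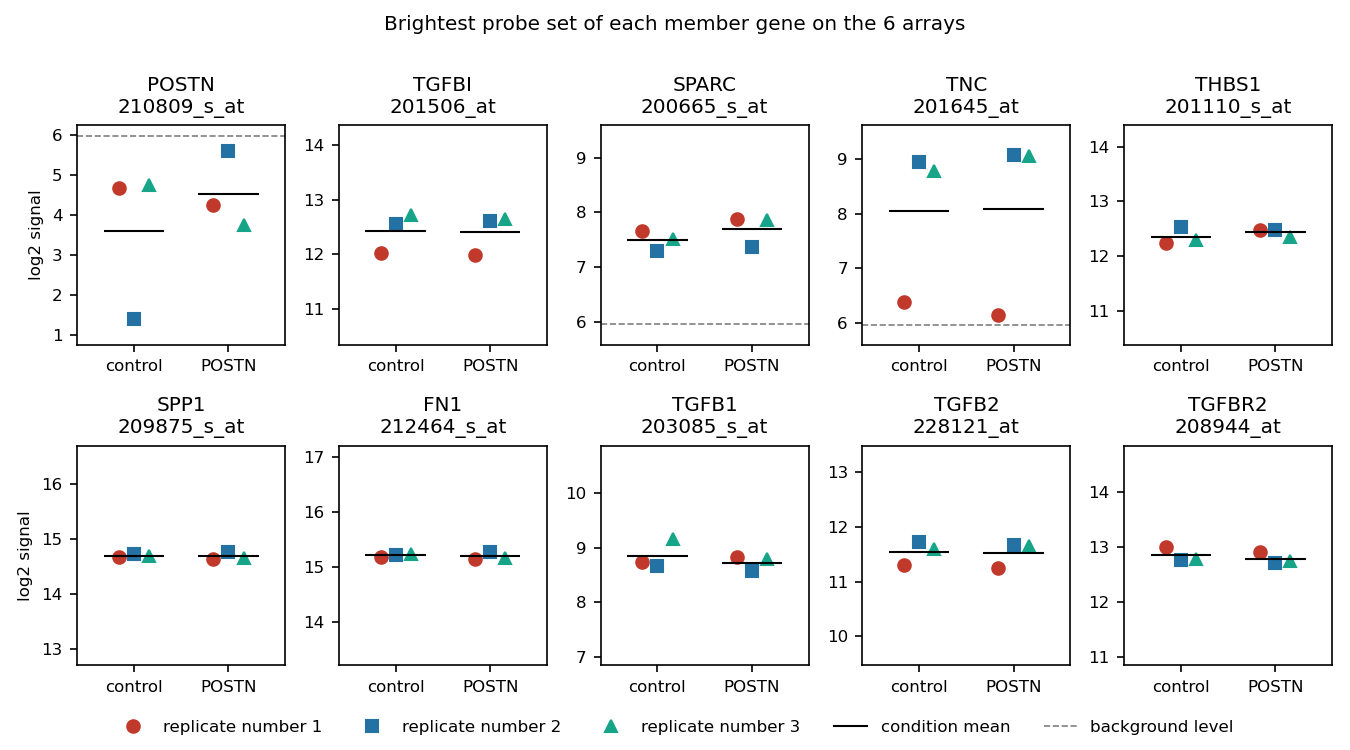
Log2 signal of the brightest probe set of each of the 10 genes on the 6 arrays, with the group means as black lines and the background level of 5.98 as a dashed line where it lies in range. The panels have different vertical axes. For TNC the red points, the arrays numbered 1, lie at 6.39 and 6.16 and the others between 8.78 and 9.07, while control and POSTN means are nearly equal.

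TNC, which encodes tenascin-C, a large matrix protein of wounds and tumor stroma, was also lowest on the arrays numbered 1, with a wider gap. On 201645_at the log2 signals were 6.39, 8.94 and 8.78 on control arrays 1, 2 and 3, and 6.16, 9.07 and 9.05 on the POSTN arrays. Both arrays numbered 1 were just above the background level, and the other 4 were far above it. The difference between POSTN and control was 0.05, and its 95% interval, -1.78 to 1.88, was the widest of the 23 probe sets above background. With the replicate block, the interval was -0.31 to 0.42. Without the control array numbered 1 the difference was -0.77, and without the POSTN array numbered 1 it was 1.02, with no call in either case. The other TNC probe sets, 216005_at and 237169_at, were within the background range. The latter differed by -1.84 between POSTN and control.

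SPARC, an osteonectin that binds collagen and calcium, was expressed at a lower signal. On 200665_s_at the control arrays gave 7.67, 7.29 and 7.52 and the POSTN arrays 7.89, 7.36 and 7.87. In each pair of arrays with 1 number the POSTN array was the higher, but the groups overlapped, and the difference of 0.22 had a 95% interval from -0.30 to 0.73. The second SPARC probe set was within the background range.

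THBS1 encodes thrombospondin-1, which can release TGF-beta from its latent complex. On its brightest probe set, 201110_s_at, the control log2 signals were 12.25, 12.53 and 12.30 and the POSTN signals 12.48, 12.48 and 12.36. The groups overlapped, and the difference was 0.08 (95% interval -0.13 to 0.30). 201109_s_at and 201108_s_at differed by -0.10 and 0.14. A much dimmer probe set, 235086_at, gave 5.73, 7.59 and 6.95 on control arrays and 6.26, 7.06 and 7.08 on POSTN arrays. Its difference between POSTN and control was 0.04 with a 95% interval from -1.01 to 1.08. The arrays numbered 1 were again the lowest here, which on the brightest probe set of the gene was so in the control group only. The other 3 THBS1 probe sets were within the background range.

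SPP1, osteopontin, a secreted integrin ligand often high in HCC, was among the steadiest of the genes. On 209875_s_at the control log2 signals were 14.67, 14.73 and 14.70 and the POSTN signals 14.65, 14.77 and 14.66. The difference was -0.011 (95% interval -0.18 to 0.16). A second probe set, 1568574_x_at, differed by 0.05.

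FN1 encodes fibronectin, the matrix protein that cells grip through integrins, and all 7 of its probe sets were above background. The brightest, 212464_s_at, had control log2 signals of 15.18, 15.22 and 15.24 and POSTN signals of 15.15, 15.28 and 15.16, with a difference of -0.016 (95% interval -0.19 to 0.15). On 211719_x_at the control signals were 15.15, 15.24 and 15.12 and the POSTN signals 14.99, 15.12 and 15.09. These groups touched without overlapping, with every control array above every POSTN array and a difference of -0.10. 210495_x_at and 216442_x_at each differed by -0.12. In the opposite direction, 214701_s_at gave 10.23, 9.57 and 9.67 on control arrays and 10.23, 10.00 and 10.02 on POSTN arrays, a difference of 0.26 (95% interval -0.12 to 0.64). With the replicate block, 211719_x_at, 210495_x_at, 216442_x_at and 214701_s_at had unadjusted p-values of 0.045, 0.040, 0.042 and 0.025 in limma, and each had an adjusted p of 0.97. The first 3 were lower with POSTN and the last was higher, so the probe sets of the gene differed in direction. After quantile normalization the 3 lower values shrank to -0.015 on 211719_x_at, -0.030 on 210495_x_at and -0.027 on 216442_x_at, and the brightest probe set differed by 0.05. Without POSTN 1 the same 3 differed by -0.06, -0.04 and -0.04. 214701_s_at and 214702_at share a target record in the annotation and are not independent readings, and probe sets ending in _x_at or _s_at may also bind other transcripts.

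Among the TGF-beta ligands, TGFB1 was moderately expressed and TGFB2 was clearly above background on 4 of its 5 probe sets. TGFB1 203085_s_at had control log2 signals of 8.73, 8.66 and 9.15 and POSTN signals of 8.82, 8.57 and 8.79. The groups overlapped, and the difference was -0.12 (95% interval -0.50 to 0.26). The second TGFB1 probe set was within the background range. TGFB2 228121_at had log2 signals of 11.30, 11.72 and 11.59 on control arrays 1, 2 and 3, and of 11.24, 11.66 and 11.65 on the POSTN arrays. The array numbered 1 was the lowest in each group, and the difference between groups was -0.017 (95% interval -0.33 to 0.30). TGFB2 220407_s_at had control signals of 9.59, 10.30 and 10.21 and POSTN signals of 9.62, 10.13 and 10.19, again lowest on the arrays numbered 1, with a difference between groups of -0.05. The differences between POSTN and control on 209909_s_at and 209908_s_at were 0.10 and 0.25, and 220406_at was within the background range.

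TGFBR2, the receptor that binds the ligands and phosphorylates its type I partner, was strongly expressed on 208944_at. Its control log2 signals were 12.996, 12.76 and 12.79 and its POSTN signals 12.91, 12.71 and 12.75. The array numbered 1 was the highest in each group, opposite to TGFBI, TNC and TGFB2. The difference between POSTN and control was -0.06 (95% interval -0.27 to 0.16). On the dimmer 207334_s_at the control signals were 7.73, 7.05 and 6.69 and the POSTN signals 7.64, 7.47 and 6.94, a difference of 0.19.

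Over the 10 genes, 0 of the 35 probe sets differed between POSTN and control at an adjusted p under 0.05 in limma, against 0% of all 54613. None had an unadjusted p under 0.05 (0 of 35, with a lowest p of 0.13 in limma), against 3.02% of all probe sets and 1.16% of those above background. None had in addition a fold change over 2 or under 0.5, as the study's methods require, which was true of 2.56% of all probe sets and of 0.178% of those above background. The methods' t-test on the log2 values also gave 0 of 35 at an unadjusted p under 0.05. With the replicate block, limma gave 4 of 35 at such a p, all of them of FN1, against 4.76% of all probe sets, and 0 after adjustment.

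The differences were small as well as uncalled. Of the 23 probe sets above background, 11 were higher and 12 lower with POSTN, with a median log2 difference of -0.011 against 0.00038 over all probe sets above background. The largest difference in size was the 0.26 of FN1 214701_s_at. For 21 of the 23, the 95% interval lay inside a log2 difference of 1 either way, the size of the study's fold thresholds. The 2 exceptions were TNC 201645_at and THBS1 235086_at, whose arrays numbered 1 were far from the rest. Control and POSTN values did not overlap on 1 of the 23, FN1 211719_x_at, against 5.64% of all probe sets above background. In an exact two-sided permutation test over the 6 arrays, the smallest p that 3 against 3 can give is 0.10, so this design could not pass 0.05 for a single probe set.

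**Figure D2:**
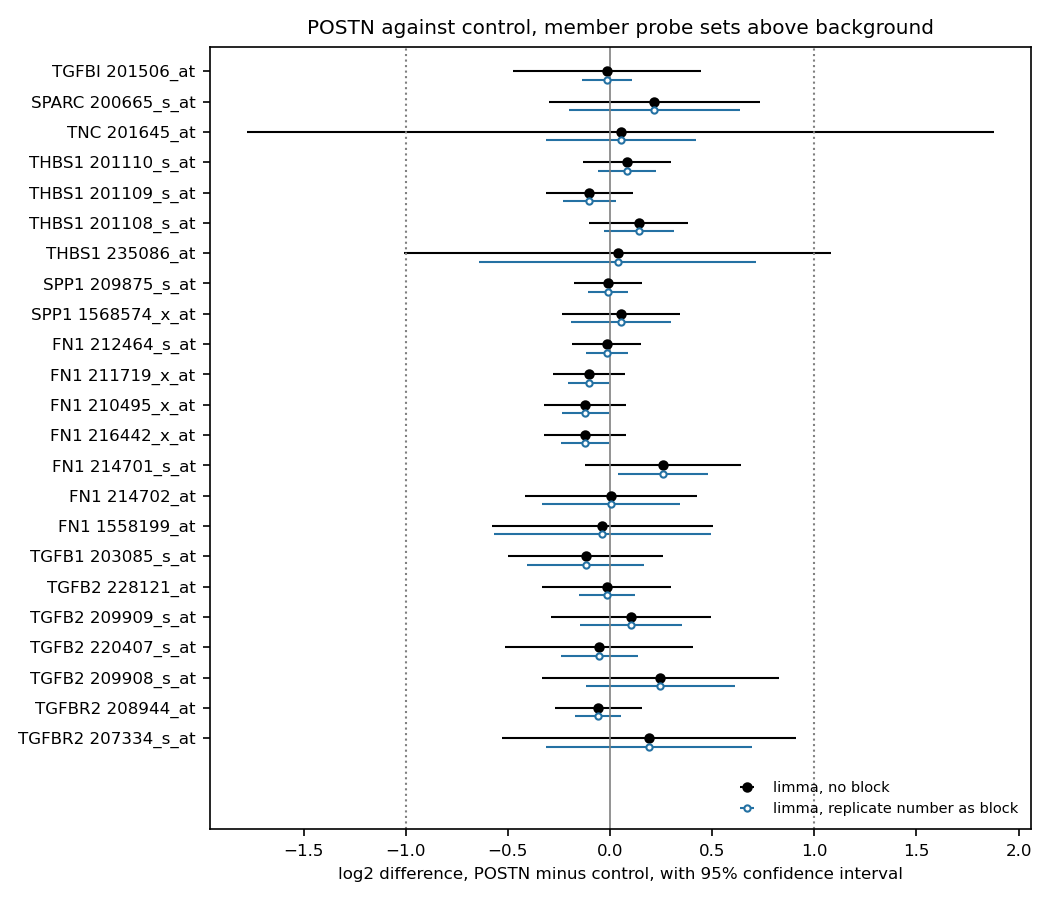
Log2 difference, POSTN minus control, with its 95% confidence interval for the 23 probe sets above background, without (black) and with (blue) the replicate number as a block. The dotted lines mark a log2 difference of 1 either way. All points lie within 0.26 of 0, and the wide interval of TNC, -1.78 to 1.88, narrows to -0.31 to 0.42 with the block.

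The arrays numbered 1 were then compared with those numbered 2 and 3, with the condition as a covariate. In limma, 5 of the 23 probe sets above background passed an adjusted p under 0.05, against 11.7% of all such probe sets. TGFBI, TNC and TGFB2 (by 2 probe sets) were lower on the arrays numbered 1, which makes 4 lower against 5.61% of all. FN1, by 1 of its 7 probe sets, was higher, against 6.11% of all. The numbers did not overlap on 10 of the 23, against 39.9% of all probe sets above background, so that such a pattern was common on these arrays.

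TNC 201645_at had mean log2 signals of 6.27 on the arrays numbered 1 and 8.96 on the others, a difference of -2.69 (standard error 0.17, limma adjusted p = 9.08e-06), or 6.44-fold lower. The difference was -2.47 within the control arrays and -2.90 within the POSTN arrays. As the arrays numbered 1 were just above the background level, its size depended on the scale, and with log2(signal + 50) it was -2.10. TNC 216005_at, within the background range, differed by -0.91 and was not called. TGFBI had means of 12.00 and 12.64, a difference of -0.64 (standard error 0.06, limma adjusted p = 0.000209), or 1.55-fold lower. Within control and within POSTN arrays the TGFBI difference was -0.62 and -0.65.

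TGFB2 differed by -0.38 on 228121_at (limma adjusted p = 0.0070) and by -0.60 on 220407_s_at (limma adjusted p = 0.0026), or 1.30-fold and 1.52-fold lower. Its probe sets 209909_s_at and 209908_s_at pointed the same way, at -0.37 and -0.54, without passing (limma adjusted p = 0.15 and 0.17). On 209909_s_at the difference was -0.64 within the control arrays but -0.09 within the POSTN arrays, where POSTN 1 (10.52) was above POSTN 3 (10.44). On 209908_s_at it was -0.60 and -0.49. All 4 probe sets of TGFB2 above background were thus lower in mean on the arrays numbered 1, and 2 of them were called.

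FN1 214701_s_at was higher on the arrays numbered 1 by 0.42 (limma adjusted p = 0.042), while the brightest probe set of FN1 differed by -0.06, or by 0.11 after quantile normalization, without a call. TGFBR2 was not called, with differences of 0.20 on 208944_at (limma adjusted p = 0.059) and 0.65 on 207334_s_at (limma adjusted p = 0.21). THBS1 235086_at differed by -1.18 (limma adjusted p = 0.062) and SPARC by 0.27, also without a call. TGFB1 and SPP1 differed by -0.015 and -0.05 on their brightest probe sets.

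These calls depended on how the spread of each probe set was estimated. When the prior variance did not follow the mean signal, 0 of the 35 were called (TNC at an adjusted p of 0.17 and TGFBI at 0.28), as were 0 of all probe sets. TGFBI and TNC were called without each array in turn, both TGFB2 calls were lost without control 1 (adjusted p = 0.094 and 0.098), that of 228121_at also without POSTN 1 (0.16), and that of FN1 was lost whichever of the 6 arrays was left out. In an exact permutation test, 2 arrays against 4 cannot give a p under 0.067. The difference between number 1 and the others was itself compared between the groups, and 0 of 35 interaction terms passed in limma (0% of all probe sets), with 2 at an unadjusted p under 0.05 (4.53% of all probe sets) and a lowest adjusted p of 0.99. That comparison rests on 1 array numbered 1 in each group.

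**Figure D3:**
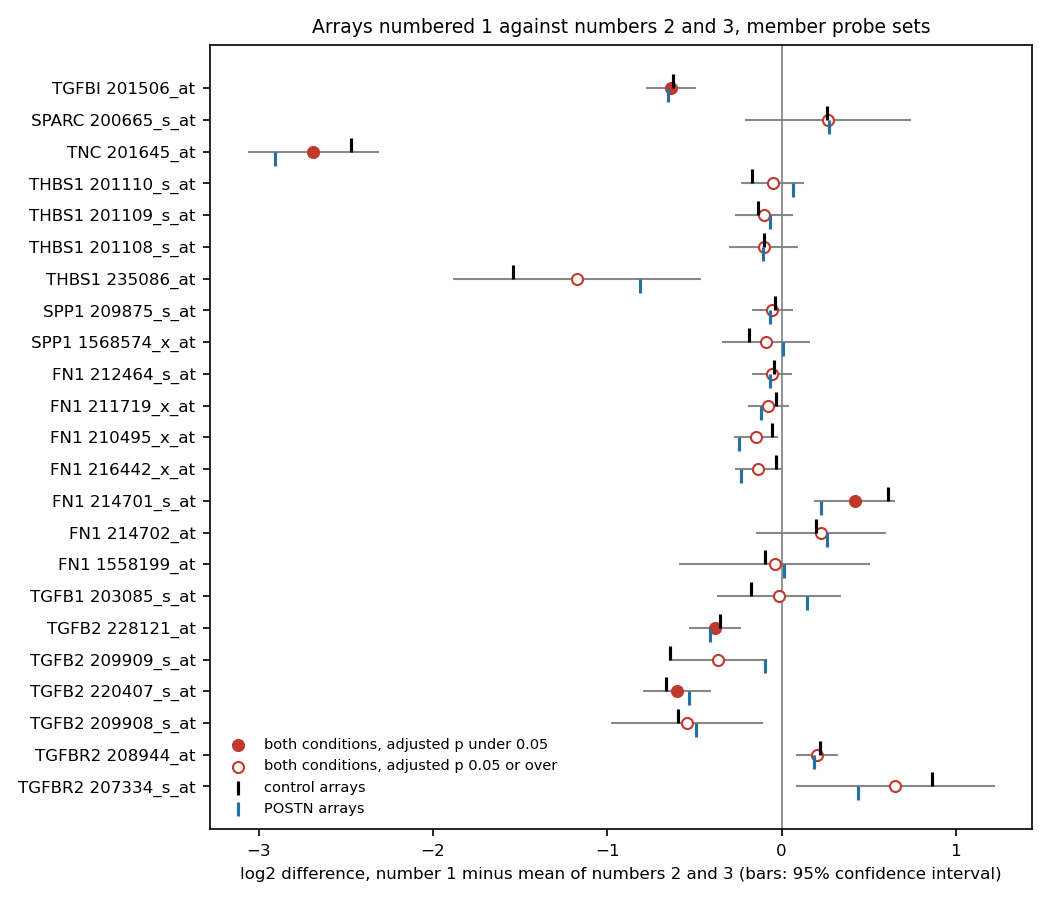
Log2 difference between the arrays numbered 1 and the mean of those numbered 2 and 3 for the 23 probe sets above background, with 95% confidence intervals. Filled circles passed an adjusted p under 0.05 in limma, and black and blue ticks give the difference within control and within POSTN arrays. TNC lies at -2.69, far from the other genes, and TGFBI at -0.64.

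On the brightest probe sets of TGFBI, TNC and TGFB2, the 2 arrays numbered 1 were the lowest. The order of the other 4 arrays differed between these genes, and was reversed between TGFBI and TGFB2. Over the 6 arrays, the brightest probe sets of TGFBI and TNC correlated at a Pearson r of 0.98, those of TNC and TGFB2 at 0.98, and those of TGFBI and TGFB2 at 0.93. TGFBR2 ran the other way, at -0.90 with TGFBI and -0.94 with TNC. All these values share the split between number 1 and the others, so that the points form 2 clusters, and they are given as a description. The genes most like TGFBI over the 6 arrays were IFT22 and SDC4 (r = 0.998 for both) and P4HA2 (r = 0.997), which encodes a collagen prolyl hydroxylase. For TNC they were CFLAR, TMEM68 and IL13RA2, each with an r of 0.998, and for TGFB2 they were APLP2, ANXA1 and RAB27A, each with an r of 0.997.

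The promoters of these 3 genes are printed because they were called together on the arrays numbered 1. The sequences are the 250 bases before each gene's start from RefSeq on GRCh38.p14, at chr9:115118158-115118407 on the minus strand for TNC, chr5:136028738-136028987 on the plus strand for TGFBI and chr1:218345086-218345335 on the plus strand for TGFB2. Capitals mark matches, on either strand, to TATAAA (1 form of the TATA box), TGANTCA (the AP-1 motif) or CAGAC (a SMAD-binding element). None of the capital stretches overlap. Other forms of the TATA box were not searched, so a promoter without TATAAA may still hold one.
TNC: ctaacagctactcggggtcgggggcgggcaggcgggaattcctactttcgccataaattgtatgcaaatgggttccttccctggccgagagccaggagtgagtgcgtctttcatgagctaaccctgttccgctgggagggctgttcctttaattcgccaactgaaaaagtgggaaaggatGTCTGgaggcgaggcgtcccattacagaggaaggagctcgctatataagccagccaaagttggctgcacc
TGFBI: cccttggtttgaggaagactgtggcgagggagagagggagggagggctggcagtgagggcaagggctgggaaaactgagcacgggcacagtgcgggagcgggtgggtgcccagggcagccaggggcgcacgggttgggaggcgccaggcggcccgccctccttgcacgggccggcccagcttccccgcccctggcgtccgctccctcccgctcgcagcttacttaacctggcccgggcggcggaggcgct
TGFB2: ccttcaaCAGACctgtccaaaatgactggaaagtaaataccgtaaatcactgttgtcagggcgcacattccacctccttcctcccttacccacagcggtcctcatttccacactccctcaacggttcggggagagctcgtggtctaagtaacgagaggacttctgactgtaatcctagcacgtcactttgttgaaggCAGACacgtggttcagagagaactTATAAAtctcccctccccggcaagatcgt
The TNC promoter held CAGAC once, on the opposite strand at 70 bases before the start. The TGFB2 promoter held it at 243 and 53 bases before the start, and TATAAA at 29. The TGFBI promoter, with 72.8% G and C against 54.8% for TNC and 50.4% for TGFB2, held none of the 3 motifs. Of the 10 genes, 5 held CAGAC, 2 held TATAAA and 1 held TGANTCA in a window of this kind, against 38.0%, 10.7% and 6.57% of 35116 promoters. A match here is only a match of letters.

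The wider set of genes for matricellular proteins and for TGF-beta signaling was read through the brightest probe set of each gene. Of 11550 genes above background on these arrays, 7.19% were lower and 7.9% higher on the arrays numbered 1, and 0.866% differed between POSTN and control at an unadjusted p under 0.05. Of the other matricellular proteins, 10 of 30 measured genes were above background, with 3 lower and 1 higher on the arrays numbered 1. CCN1 and CCN2, cysteine-rich matricellular proteins that respond to TGF-beta and to mechanical tension, differed by -1.19 and -1.01, ECM1 by -0.65 and FBLN1, a fibulin of elastic fibers, by 0.62.

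Of the ligands, carriers and activators of TGF-beta, 17 of 25 were above background, with 3 lower and 2 higher on the arrays numbered 1. DCN (decorin, which binds TGF-beta and is also counted among the stellate cell markers) differed by -1.002, LTBP1 (which holds latent TGF-beta in the matrix) by -0.70 and FSTL3 (an activin inhibitor) by -0.56. INHBB, an activin subunit, differed by 0.80 and LTBP3 by 0.78. Of the receptors and SMADs, 22 of 25 were above background, with 1 lower (SMURF1 at -0.39, a ubiquitin ligase for SMAD proteins) and 4 higher. Those 4 were SMAD6 at 0.77 and BAMBI at 0.64, both inhibitors of the pathway, and SMAD4 at 0.40 and SMAD3 at 0.35, which carry the signal.

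Of genes known to be induced by TGF-beta, 22 of 27 were above background, with 6 lower and 4 higher on the arrays numbered 1. The lower genes included TAGLN (transgelin, an actin-binding protein) at -2.37, LOX (lysyl oxidase, which crosslinks collagen) at -1.20, CDKN1A (the cell cycle inhibitor p21) at -1.04 and TGM2 (a transglutaminase) at -0.72, beside CCN2 as above. TAGLN had log2 signals of 6.45, 8.94 and 8.81 on the control arrays and 6.68, 9.03 and 8.94 on the POSTN arrays, with both arrays numbered 1 the lowest, as for TNC. The higher genes were NEDD9 at 0.92, ANGPTL4 at 0.77, BHLHE40 at 0.76 and CDKN2B at 0.63. With the prior variance without trend, none of these calls was made. Genes of the pathway lay on both sides of 0, and the median differences of the 4 lists, -0.14, -0.08, -0.06 and -0.04, stood beside 0.010 over all genes above background.

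Between POSTN and control, 0 genes of these 4 lists passed an adjusted p under 0.05 in limma, and 0 of their genes above background had an unadjusted p under 0.05. Their median log2 differences lay between -0.0039 and 0.08, against -0.0078 over all genes above background. IL11, a cytokine gene that TGF-beta induces in fibroblasts, had control log2 signals of 6.25, 5.85 and 6.35 and POSTN signals of 4.07, 4.77 and 3.46. The groups did not overlap, and the difference was -2.05 (standard error 0.59), with an unadjusted p under 0.05 and an adjusted p of 0.9999 in limma. Only 2 of the 3 control arrays were above the background level. The control mean of 6.15 was just over the background level and the POSTN mean of 4.10 under it, and the mean over the 6 arrays, 5.12, was within the background range. Of the 27 measured genes of this list, it was the only 1 with such a p. In the other 3 lists the 1 such gene was FBLN5, a fibulin, within the background range in both groups, with a difference of 1.80. Over all 19775 measured genes, dim ones included, 491 had such a p. IL11 and FBLN5 also passed the study's fold threshold, and 409 of all 19775 genes passed both thresholds.

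**Figure D4:**
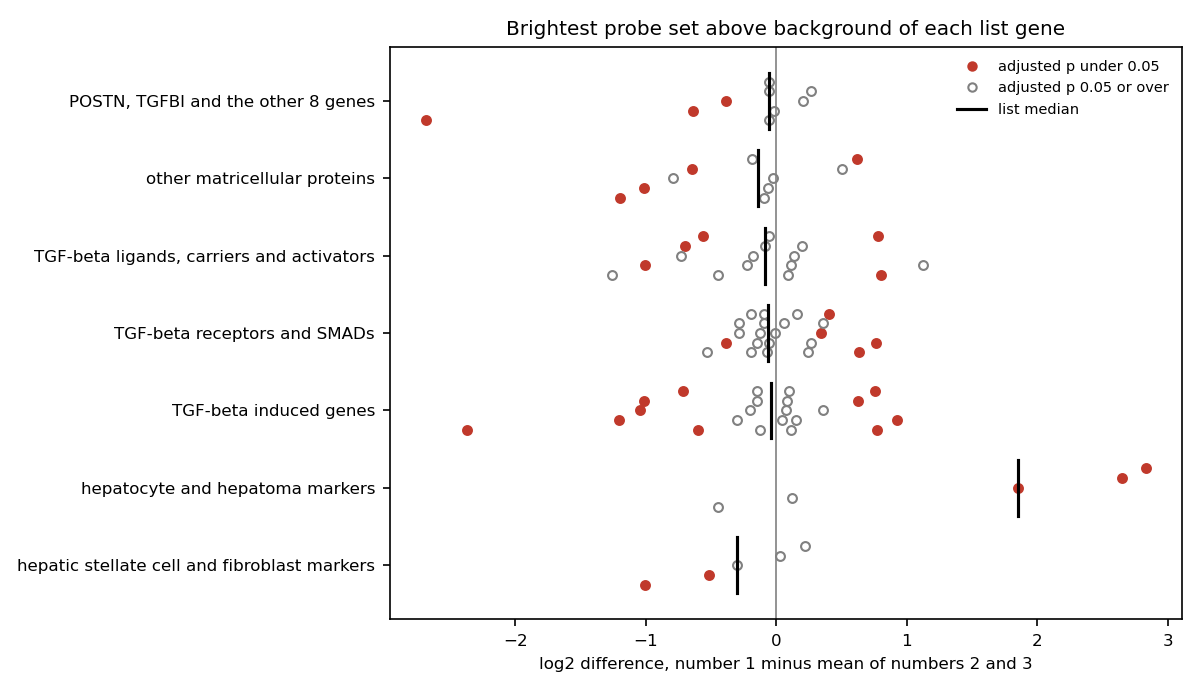
Log2 difference between the arrays numbered 1 and those numbered 2 and 3 for the brightest probe set above background of each list gene, with list medians as black bars and genes at an adjusted p under 0.05 in limma filled. The 4 lists around TGF-beta and the matrix lie on both sides of 0 with medians from -0.14 to -0.04, while TF, FGB and ALB lie at 2.83, 2.65 and 1.85.

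Some markers of cell types differed with the same split of arrays. Of 8 measured hepatocyte and hepatoma markers, 5 were above background, and TF (transferrin), FGB (fibrinogen beta) and ALB (albumin) were higher on the arrays numbered 1, by 2.83, 2.65 and 1.85. SERPINA1, within the background range in mean, was higher by 2.92, while AFP, the fetal marker of hepatoma, was above background on all arrays and differed by 0.12 without a call, and TTR (transthyretin) differed the other way, by -0.44, also without a call. The summed linear signal of the 8 markers was 3056 and 3354 on the arrays numbered 1 and 985 to 1077 on the others. It was 985 to 3056 on control and 1055 to 3354 on POSTN arrays.

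Of 14 markers of hepatic stellate cells and fibroblasts, 5 were above background. DCN and COL6A3 (collagen VI) were lower on the arrays numbered 1, by log2 differences of -1.002 and -0.51, while LUM (lumican), COL1A1 and RGS5 differed by 0.03, -0.30 and 0.22 without a call. The other 9 markers, ACTA2, COL1A2, COL3A1, PDGFRA, PDGFRB, DES, LRAT, THY1 and FAP, were within the background range in mean over the 6 arrays. Some single arrays were above it. COL3A1 had means of 4.04 on the arrays numbered 1 and 6.48 on the others, and ACTA2 had 6.31 and 5.64. Neither was called (limma adjusted p = 0.061 and 0.64). The summed linear signal of the 14 was 4691 and 5063 on the arrays numbered 1 and 5473 to 6194 on the others. It was 4691 to 6147 on control and 5063 to 6194 on POSTN arrays. LUM and COL6A3, with mean log2 signals of 11.17 and 10.89, weigh most in this sum. The labels and the study's methods name no cells but MHCC97H in these samples, so a signal of these markers need not come from stellate cells. In bulk RNA, a level changed in all cells and one changed in some cells cannot be told apart. The part of these markers in the differences of TNC, TGFBI and TGFB2 was not tested.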

How the data were processed

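Heat-treated MHCC97H samples (3 control and 3 POSTN) were grouped and numbered by their labels. The authors scanned the arrays and made signals from them by MAS 5.0 with the R package affy (version not given in the sources used here), and the deposited values are log2 signals with a trimmed mean of 500 on the linear scale (2% cut at each end). MAS 5.0 subtracts background and mismatch signal, so dim probe sets vary widely: the median SD within a group was 1.29 under a mean log2 signal of 4 and 0.13 above 10. Affymetrix controls (62 probe sets) were left out, and 0 value columns were unused. Precision is limited by the 6 arrays.

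POSTN and control were compared with limma 3.58.1 under R 4.3.3, by lmFit and eBayes with trend, over 54613 probe sets, with Benjamini-Hochberg adjustment. The scripts were tested on simulated data. Replicate numbers were taken as pairing the samples. Deviations of same-numbered arrays from their group means correlated at 0.529, 0.235 and 0.239 above background (0.088, 0.034 and 0.025 over all probe sets). Correlations between arrays with different numbers were not computed. The split of the arrays numbered 1 would by itself make deviations of the other arrays correlate, whatever their number. These values therefore cannot decide whether the other arrays pair by number. The labels give the numbers but do not say that equal numbers pair samples. The pairing was thus an assumption, and the results with the replicate block rest on it.

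The 10 genes, the gene lists and the comparison of replicate number 1 were chosen with earlier results of these data known. All probe sets of the 10 genes were counted, but not each was named. From each list, at most the 5 largest differences in each direction were named. The threshold was an unadjusted p under 0.05 for POSTN against control and an adjusted p under 0.05 for number 1. The brighter group had to be above background. FBLN5, with neither group above background, was named outside this rule. Values of marker genes outside this rule were also given, as levels. For TGFBI and the brightest called probe sets, the 3 most correlated genes are given. List genes without a probe set of 1 symbol were not analysed here. Symbols came from the platform's annotation table, which can be old. Alternatives were quantile normalization, median centring, log2(signal + 50), filters on dim or cross-hybridising probe sets, no trend, the replicate block, other forms of the number comparison, the methods' t-test and leaving out arrays.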

Additional observations from a re-analysis of the deposited data

How the results depend on the processing

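For POSTN against control, the count of 0 probe sets at an adjusted p under 0.05 was the same under all alternatives run, including the replicate block (0, pairing arrays by number). Of 398 single differences under alternatives, 44 differed in sign, and none was called (lowest adjusted p 0.96). At the study's thresholds the count was 0, and 0 to 1 when each array was left out. The 1 was TNC 237169_at, within the background range, called there without control 3 and without POSTN 1. The count of 5 probe sets in the comparison of the arrays numbered 1 was 3 without the _x_at and _s_at probe sets, where 17 were left to test, and 0 with a prior variance without trend. It was 2 to 5 when each array was left out, 2 without control 1 and 3 without POSTN 1, and 4 to 7 under the other alternatives. With only probe sets above background, TGFBR2 208944_at and THBS1 235086_at were called as well (adjusted p = 0.026 and 0.025). The interaction count was 0 under each alternative run. Dim probe sets, with their wide spread, set the limit: POSTN transcript levels cannot be compared here.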
